A study of Bos taurus with 20 samples.

Results

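Transcript levels of 10 endothelial and angiogenic genes were measured in the cells of the bovine (Bos taurus) ovarian follicle. The genes were chosen by name and not by their values. They comprised the ligands VEGFA, ANGPT1 and ANGPT2, the receptors KDR, FLT1, NRP1, TEK and TIE1, and the endothelial surface proteins PECAM1 and CDH5. They made up 10 of the 22550 genes on the array and 22 of its 61325 probes. The gene names given with the probes matched 9 of them, while the PECAM1 probes carried no gene name and were matched through their transcript in the RefSeq gene table of assembly ARS-UCD2.0.

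The samples came from antral follicles of 3 to 6 mm in ovaries collected after slaughter, with 4 arrays per group. The groups were theca (TH), granulosa (GC) and cumulus (CC) cells and oocytes, all from immature material, and a second set of CC taken once the complex had been matured in vitro (IVM) for 4 h. TH were scraped from the follicle wall, so their RNA could come from every cell type of that wall. No group was sorted on a surface marker according to the methods, and the breed, the age and the number of animals behind each array are not given in the sources used here. The replicates were biological according to the methods, but nothing ties a replicate to one animal, so p-values measured the spread between these samples.

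Each level is the log2 of the array's processed Cy3 signal minus the 75th percentile of that array, so a level of 0 is a signal equal to that percentile. The lowest signal that the scanner software marked as well above background lay between -5.73 and -4.58 on the 16 TH, GC, CC and IVM arrays. It lay between -6.84 and -5.91 on oocyte replicates 1, 3 and 4, and at -4.02 on oocyte replicate 2. That oocyte array stood apart, with 49.3% of probes well above background against up to 68.8% on other oocyte arrays, and its dim genes therefore sat near -6.3. On the TH, GC, CC and IVM arrays 54.2 to 62.8% of probes were well above background. No spot was saturated. Replicates 1 and 2 of TH, GC, CC and oocytes lay on slide 1 and replicates 3 and 4 on slide 2, whereas all 4 arrays of CC after IVM lay on a slide of their own. Differences involving CC after IVM and differences between slides therefore cannot be told apart.

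The theca of an antral follicle carries the follicular capillary bed, while the granulosa, the cumulus and the oocyte lie inside a basement membrane that vessels do not cross before ovulation. VEGFA, secreted by many cell types under hypoxia, binds KDR, the main signalling VEGF receptor of endothelium, and FLT1, which binds it tightly and also occurs as a soluble decoy, with NRP1 as a co-receptor. ANGPT1, made by mural and stromal cells, activates the receptor TEK (also called TIE2) and stabilises vessels, ANGPT2 acts on the same receptor as a context-dependent antagonist, and TIE1 pairs with TEK. PECAM1 and CDH5 (VE-cadherin) join endothelial cells at their contacts.

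The tissue labels were checked with marker lists, summing each list's signals on an array in multiples of the array's 75th percentile. The list of 6 theca markers summed to 429 to 676 in TH, and INSL3, COL1A1 and COL1A2 were its brightest. In GC the same sum was 26.6, 101, 88.0 and 33.4 in replicates 1 to 4, so theca markers were higher in GC replicates 2 and 3 than in the other two. The 6 granulosa and cumulus markers summed to 136 to 493 in GC, 445 to 494 in CC and 709 to 801 in CC after IVM, against 23.4 to 44.3 in TH. The 7 oocyte markers summed to 249 to 331 in oocytes and to 3.01 or less elsewhere. The 10 endothelial markers, of which 6 are among the genes described here, summed to 7.56 to 13.5 in TH, where 9 of 10 were well above background on all 4 arrays. They summed to 0.500 to 1.21 in GC, 0.222 to 0.315 in CC and 0.351 to 0.783 in CC after IVM. In oocytes the sum was 3.02 to 4.55, with TEK, VWF and CLDN5 brightest. Smooth muscle markers, led by ACTA2, TAGLN and CNN1, also separated TH (216 to 245) from GC (9.02 to 25.0). The sum of 8 blood cell markers overlapped between TH (17.1 to 27.5) and GC (15.0 to 29.9), where most of it was haemoglobin HBA. Arrays of CC gave 25.0 to 48.0, those after IVM 30.5 to 46.4 and oocyte arrays 20.4 to 23.7. Mean HBA was highest in cumulus cells (5.22 before IVM and 5.20 after), against 4.03 for TH, 4.27 for GC and 3.07 for oocytes. HBB, the other haemoglobin marker, was dim everywhere (group means -7.44 to -5.07), and TH alone had it above background on all 4 arrays. Whether this sum follows the amount of blood was not tested. Taken singly, 4 of the 8 blood cell markers were higher in TH than in GC and none lower (11.1% and 12.5% of all genes), namely the leukocyte markers CSF1R (12.4-fold, adjusted p = 9.6e-05), CD3E (10.1-fold, adjusted p = 0.00059), PTPRC (adjusted p = 0.0027) and AIF1 (3.06-fold, adjusted p = 0.03). CSF1R and CD3E had higher means in oocytes (3.70 and -0.07) than in TH (1.60 and -1.04), while PTPRC and AIF1 were above background on no oocyte array. The part of leukocytes in the differences between TH and GC was not tested.

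All 10 genes differed among the 5 groups in the limma F-test, a test that 78.9% of all genes passed. The group with the highest mean was TH for PECAM1, CDH5, KDR, TIE1 and ANGPT1, GC for NRP1, CC for VEGFA and ANGPT2, CC after IVM for FLT1, and the oocyte for TEK. Because each array holds RNA of a whole tissue sample, fewer cells of a type and less RNA per cell cannot be told apart in any of these levels.

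**Figure D1:**
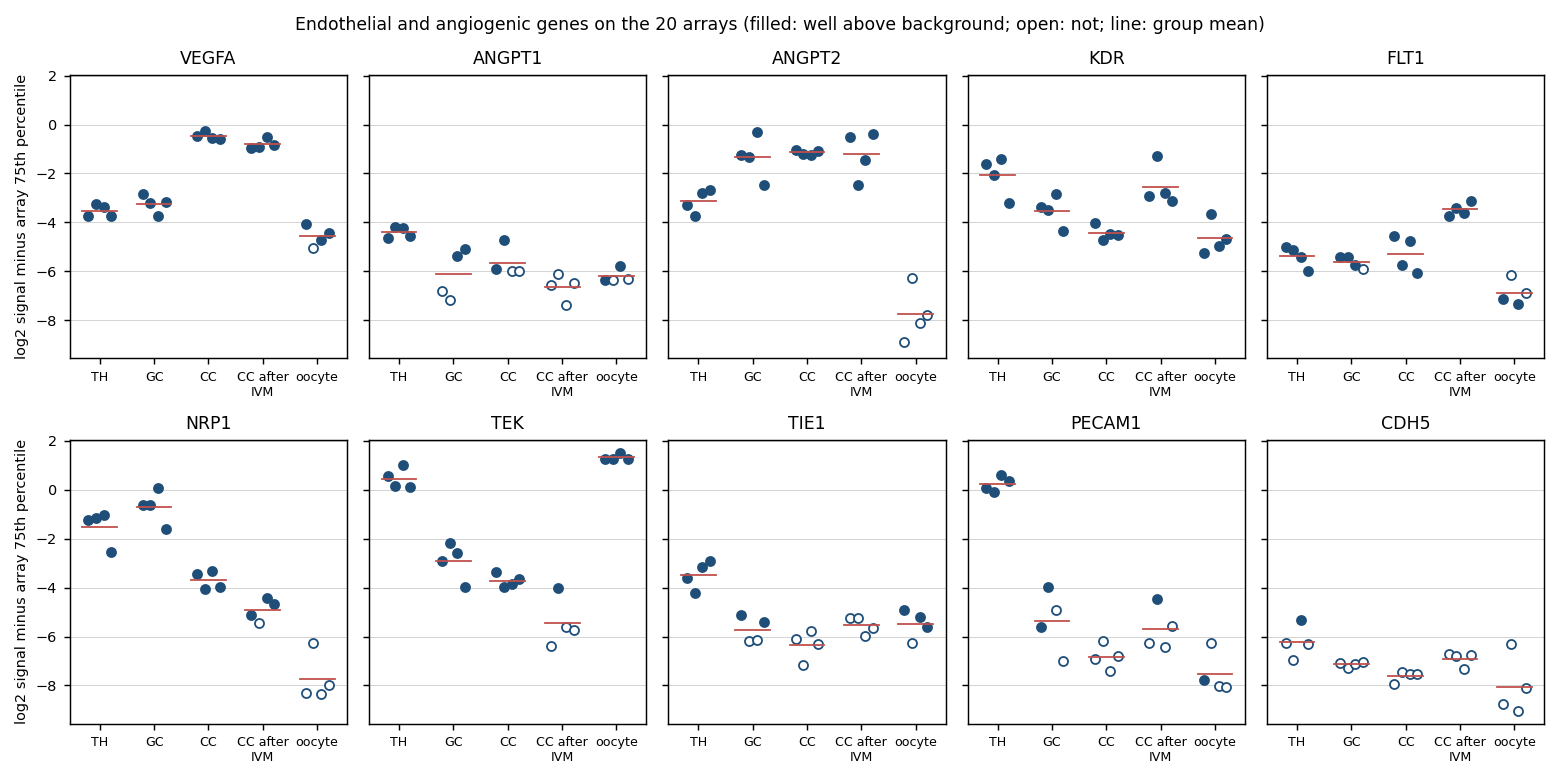
Level of each of the 10 genes on every array (log2 signal minus the array's 75th percentile), with 4 arrays per group as points and the group mean as a line. PECAM1 stood near 0 on the 4 TH arrays and at -3.96 or lower on every other array, VEGFA was highest in CC and CC after IVM, and TEK was high in both TH and oocytes.

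Against GC, TH had 5 of the 10 genes higher (PECAM1, TEK, TIE1, ANGPT1 and KDR) and 1 lower (ANGPT2), where 11.1% of all genes were higher and 12.5% lower (23.7% in all). Against CC, 7 were higher (PECAM1, TEK, TIE1, KDR, NRP1, CDH5 and ANGPT1) and 2 lower (VEGFA and ANGPT2), where 13.3% of all genes were higher and 15.6% lower (29% in all). Against CC after IVM, 5 were higher (PECAM1, TEK, NRP1, ANGPT1 and TIE1) and 3 lower (VEGFA, FLT1 and ANGPT2), where 18.5% of all genes were higher and 25.3% lower (43.7% in all). Against oocytes, 9 were higher and none lower, where 32.1% of all genes were higher and 31.9% lower (64% in all). CDH5, counted as higher against CC and oocytes, was above background on 1 TH array and on no array of those groups, so its differences compare signals at the background, and without it 6 and 8 genes were higher. The median difference over the 10 genes was 1.18, 1.79, 1.36 and 1.93 in these comparisons, beside -0.22, -0.00, -0.40 and 0.42 over all genes. The comparisons share the TH arrays and are not independent of each other.

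**Figure D2:**
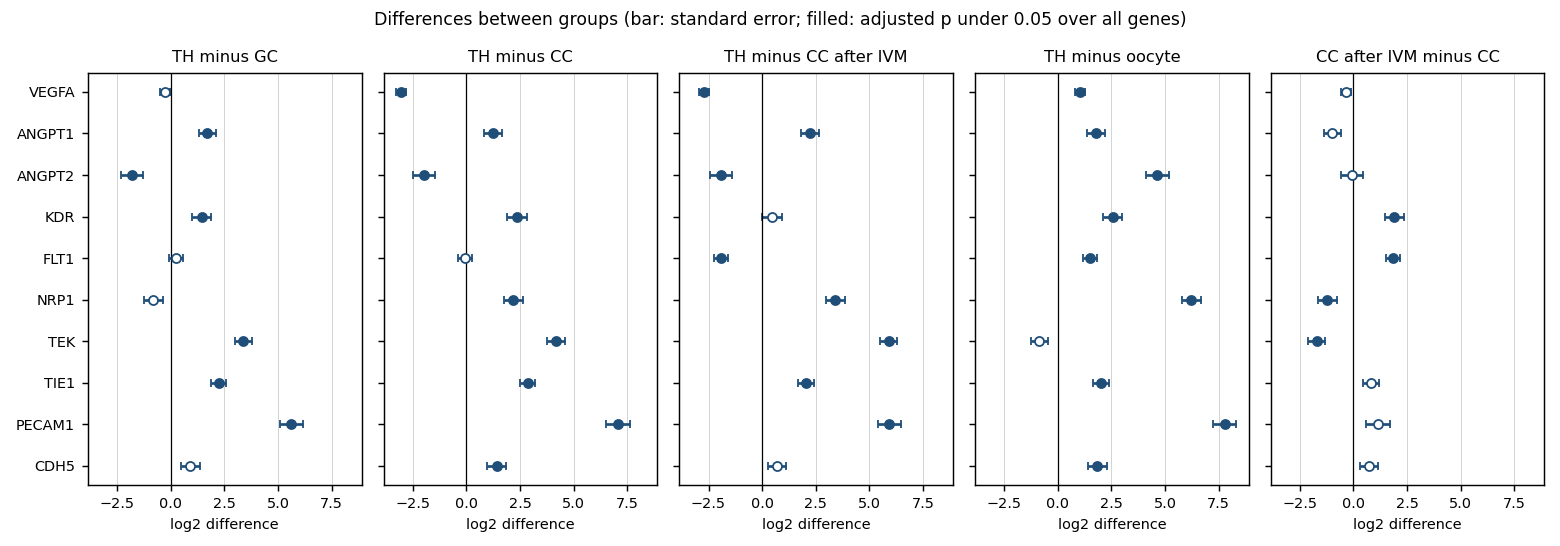
Log2 difference between TH and each other group, and between CC after IVM and CC, for the 10 genes, with the standard error as a bar and differences past the adjusted p threshold of 0.05 as filled points. PECAM1 lay furthest to the TH side against GC, CC and oocytes and level with TEK against CC after IVM.

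VEGFA was higher in cumulus cells than in theca, granulosa or oocytes. Its level was -0.46, -0.28, -0.54 and -0.58 on the CC arrays and -0.96, -0.94, -0.50 and -0.83 in CC after IVM. In TH it was -3.75, -3.24, -3.35 and -3.74, and in GC -2.84, -3.21, -3.76 and -3.18. Every cumulus array lay above every array of the other groups, while TH and GC overlapped. The TH level was 8.33-fold below CC (log2 difference -3.06 ± 0.23 SE, adjusted p = 3.6e-09) and 6.57-fold below CC after IVM (-2.72 ± 0.23, adjusted p = 1.2e-08). TH and GC did not differ past the threshold (-0.28 ± 0.23, adjusted p = 0.45), nor did CC after IVM and CC (-0.34 ± 0.23, adjusted p = 0.23). Oocytes had the lowest level (-4.56 ± 0.41, SD, n = 4, with 3 arrays above background), 2.06-fold below TH and 17.1-fold below CC (adjusted p = 0.00043 and 4.7e-12). Both VEGFA probes placed CC above TH, by 4.36 and by 1.75 on the log2 scale (adjusted p = 1.6e-08 and 2.3e-05 over all probes), so the size of the difference depended on the probe. Of the pair, 1 placed TH above oocytes past the threshold (1.46, adjusted p = 4.4e-05) and the other did not (0.62, adjusted p = 0.13).

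ANGPT1 was well above background on all 4 arrays in TH alone. Its levels there were -4.65, -4.19, -4.24 and -4.55. In GC they were -6.79, -7.17, -5.38 and -5.08, with 2 arrays above background, and in CC -5.92, -4.71, -5.97 and -5.98, again with 2 above. No TH array overlapped another group. TH exceeded GC by 1.70 ± 0.41 (3.25-fold, adjusted p = 0.004), CC by 1.24 ± 0.41 (2.36-fold, adjusted p = 0.027) and oocytes by 1.79 ± 0.41 (3.46-fold, adjusted p = 0.00069). In CC after IVM ANGPT1 was not well above background on any array (-7.39 to -6.12), and TH was at least 1.26-fold higher (adjusted p = 0.00017). None of the 6 pairs of groups outside TH differed past the threshold. The gene is dim, and with another background correction (normexp) the difference from GC was 0.04 (adjusted p = 0.87) and that from CC 0.20 (adjusted p = 0.64), while that from CC after IVM turned to -0.17 (adjusted p = 0.41). Normexp adds an offset of 50, above the ANGPT1 intensities in TH (16.9 to 47.0), so it shrinks such differences and cannot decide them. In the deposited log2 table the differences from GC, CC and CC after IVM were 0.40, 0.33 and 0.30 (adjusted p = 0.082, 0.15 and 0.11). The difference from CC also missed the threshold with quantile normalization (1.12, adjusted p = 0.098), array median scaling (1.11, adjusted p = 0.053) and by probe 2 alone (0.62, adjusted p = 0.54), and without TH replicate 2 or 3, or without CC replicate 1, 3 or 4 (1.13 to 1.18, adjusted p = 0.064 to 0.076).

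ANGPT2 was higher in GC and in both kinds of CC than in TH, and dim in oocytes. Transcripts 201 and 202 of the gene, on chromosome 27 (chr27:4422700-4481033 and chr27:4445654-4480745 in UMD 3.1), carried 2 probes each. The probes shown are 1 from each transcript, printed because they are distinct oligonucleotides that both placed TH below GC, CC and CC after IVM and above oocytes:
ANGPT2 probe 2 (transcript 202): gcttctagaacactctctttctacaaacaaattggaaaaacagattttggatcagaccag
ANGPT2 probe 4 (transcript 201): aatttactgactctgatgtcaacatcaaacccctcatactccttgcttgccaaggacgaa
All probe sequences here are 60 bases, listed 5′ to 3′ as the array files give them, and the strand and the position within exons or UTRs are not given in the sources used here.

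The ANGPT2 levels in TH were -3.28, -3.73, -2.78 and -2.69. In GC they were -1.23, -1.32, -0.30 and -2.46, in CC -1.03, -1.19, -1.25 and -1.07, and in CC after IVM -0.52, -2.48, -1.45 and -0.40. The TH arrays all lay below the arrays of these 3 groups. TH was 3.47-fold below GC (-1.79 ± 0.52, adjusted p = 0.016), 3.97-fold below CC (-1.99 ± 0.52, adjusted p = 0.0062) and 3.77-fold below CC after IVM (-1.91 ± 0.52, adjusted p = 0.0057). GC, CC and CC after IVM did not differ past the threshold from each other (adjusted p = 0.87 to 0.91). No ANGPT2 probe was well above background on any oocyte array, and TH was at least 6.87-fold higher (adjusted p = 1.6e-07), GC at least 23.8-fold and CC at least 27.2-fold. The TH to GC differences of the 4 probes ran from -2.10 to -1.89, with adjusted p = 0.0037, 0.012, 0.074 and 0.0081 over all probes. Without TH replicate 2 the difference from GC was -1.59 (adjusted p = 0.052), and without GC replicate 3 it was -1.45 (adjusted p = 0.064).

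KDR gave the widest disagreement between probes of a gene, so its 2 probes are described separately. The first 30 bases of each are printed, with the longest run of alternating C and A in capitals where it reached 12 bases (gene at chr6:72232849-72277699 in UMD 3.1):
KDR probe 1 (bases 1 to 30): attCACACACACACAaactcttgttaaatt
KDR probe 2 (bases 1 to 30): ttctgaaatggaggagggagattctgacag
The letters CACACACACA, or TGTGTGTGTG on the other strand, occurred in 82 of the 61325 probes (0.134%) and in 1 of the 22 probes of these genes, KDR probe 1. Whether this repeat affects the signal was not tested.

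KDR probe 2 read 1.55, 1.34, 1.80 and 0.79 in TH. It read -3.37, -2.10, -1.42 and -3.90 in GC, -4.65, -5.57, -5.13 and -5.37 in CC, and -2.82, -1.85, -1.77 and -2.45 in CC after IVM. In oocytes it was -1.69, -1.10, -1.82 and -1.43. All 4 TH arrays lay above every other array, and the oocyte arrays were clearly above background. By this probe TH exceeded GC by 4.07 ± 0.43, CC by 6.55, CC after IVM by 3.59 and oocytes by 2.88 (adjusted p = 9.8e-07, 1.6e-09, 1.8e-06 and 7.7e-06 over all probes). KDR probe 1 read -4.79, -5.45, -4.64 and -7.22 in TH, where 2 arrays were above background, and -3.43, -3.90, -3.78 and -3.63 in CC. It read -3.00, -0.73, -3.84 and -3.83 in CC after IVM, -3.40, -4.88, -4.29 and -4.84 in GC, and was not above background in oocytes. By this probe TH was lower than CC after IVM by 2.68 on the log2 scale (a TH minus IVM difference of -2.68 ± 0.68, adjusted p = 0.0037), and it missed the threshold against GC (-1.17, adjusted p = 0.26) and CC (-1.84, adjusted p = 0.053).

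**Figure D3:**
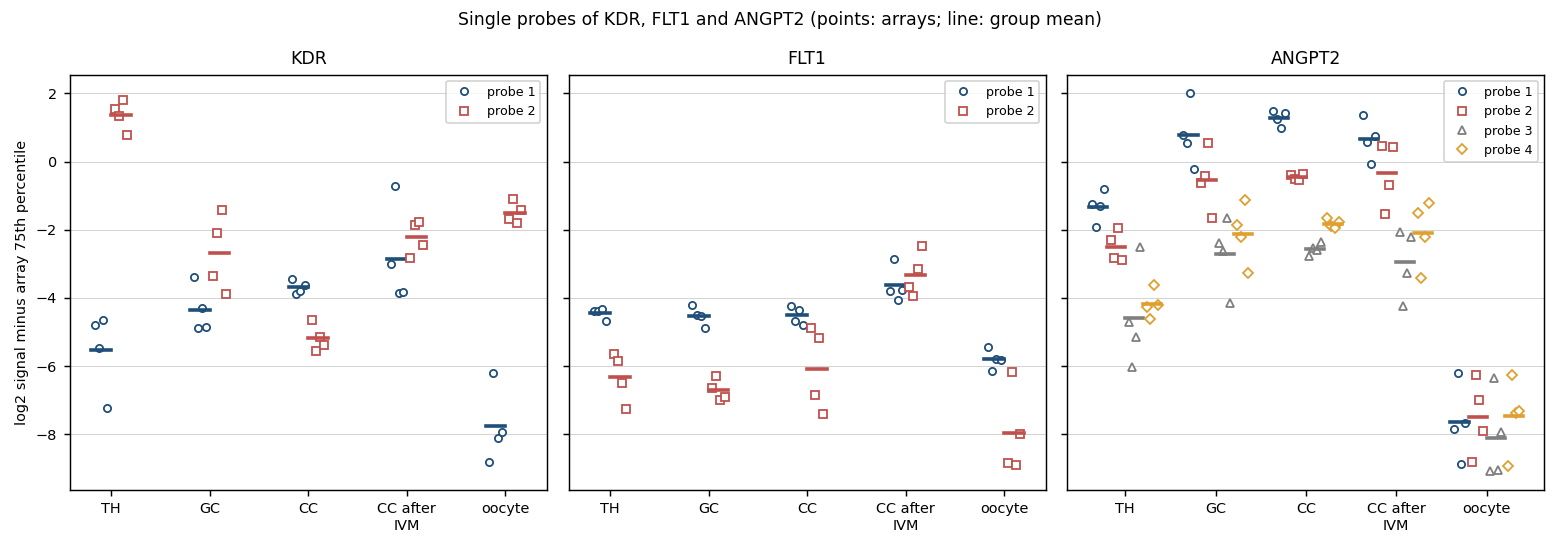
Level on every array by single probe for genes whose probes differed (log2 signal minus the array's 75th percentile, 4 arrays per group). KDR probe 2 stood between 0.79 and 1.80 in TH and lower in all other groups, whereas KDR probe 1 was lower in TH than on the arrays of CC and of CC after IVM.

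Taking both KDR probes together, the gene level was -1.62, -2.06, -1.42 and -3.22 in TH and -3.38, -3.49, -2.86 and -4.37 in GC. The ranges overlapped through TH replicate 4 and GC replicate 3. TH exceeded GC by 1.45 ± 0.45 (2.73-fold, adjusted p = 0.024), CC by 2.35 (5.11-fold, adjusted p = 0.0004) and oocytes by 2.56 (5.90-fold, adjusted p = 4.7e-05). The difference from GC missed the threshold without TH replicate 1 (1.29, adjusted p = 0.074), TH replicate 3 (1.23, adjusted p = 0.084) or GC replicate 4 (1.16, adjusted p = 0.088). Against CC after IVM (-2.91, -1.29, -2.80 and -3.14) TH did not differ past the threshold (0.46 ± 0.45, adjusted p = 0.41), although it did with the brighter probe alone (3.59, adjusted p = 1.6e-06), with normexp (0.73, adjusted p = 0.0092), in the deposited table (0.99, adjusted p = 0.00076) and with array weights (1.06, adjusted p = 0.018).

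FLT1 was highest in CC after IVM. Its levels there were -3.73, -3.40, -3.60 and -3.13, above the arrays of every other group. In TH they were -5.00, -5.12, -5.40 and -5.97, in GC -5.43, -5.40, -5.76 and -5.89, and in CC -4.55, -5.76, -4.76 and -6.09, so these 3 groups overlapped. TH was 3.75-fold below CC after IVM (-1.91 ± 0.33, adjusted p = 9.3e-05) and did not differ past the threshold from GC (0.25, adjusted p = 0.67) or CC (-0.09, adjusted p = 0.91). Oocytes were lowest (-6.89 ± 0.52, SD, n = 4), 2.85-fold below TH (adjusted p = 0.00044). The 2 probes, which share no long run of bases, are shown because 1 was detected in TH and the other was not (gene at chr12:31678405-31850535 in UMD 3.1):
FLT1 probe 1: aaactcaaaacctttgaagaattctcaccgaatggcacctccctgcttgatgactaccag
FLT1 probe 2: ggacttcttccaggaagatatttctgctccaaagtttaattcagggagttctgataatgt
FLT1 probe 1 was -4.37, -4.38, -4.32 and -4.67 in TH and -3.79, -2.86, -4.07 and -3.78 in CC after IVM, a TH minus IVM difference of -0.81 (adjusted p = 0.011). FLT1 probe 2 was not above background on any TH, GC or oocyte array and read -3.68, -3.94, -3.14 and -2.49 in CC after IVM (adjusted p = 0.00057 against TH, with no size given, since TH was at the background). The gene-level folds of 3.75 (TH and CC after IVM) and 2.85 (TH and oocytes) therefore depend in part on signals at the background.

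NRP1 was highest in the 2 cell types of the follicle wall. The levels in GC were -0.63, -0.61, 0.08 and -1.59, and those in TH -1.24, -1.17, -1.04 and -2.55. In CC they were -3.43, -4.05, -3.30 and -3.97, and in CC after IVM -5.11, -5.43, -4.43 and -4.67. TH and GC overlapped (-0.81 ± 0.45, adjusted p = 0.23), and both lay above all cumulus arrays. In a fit of TH and GC alone with the replicate number as a block, NRP1 was lower in TH past the threshold (adjusted p = 0.018), and TH lay below the same-numbered GC array in all 4 pairs. TH exceeded CC 4.55-fold (2.18, adjusted p = 0.00075) and CC after IVM 10.6-fold (3.41, adjusted p = 4e-06), and GC exceeded CC 7.98-fold (3.00, adjusted p = 0.00024). NRP1 was not above background on any oocyte array, where TH was at least 21.1-fold and GC at least 37.1-fold higher (adjusted p = 2.3e-10 for TH).

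TEK was high in TH and in oocytes. It read 0.57, 0.16, 1.00 and 0.12 on the TH arrays and 1.26, 1.27, 1.52 and 1.28 on the oocyte arrays. In GC it was -2.92, -2.18, -2.59 and -3.97, and in CC -3.37, -3.96, -3.86 and -3.65. In CC after IVM it was -6.38, -4.03, -5.61 and -5.72, with 1 array above background. TH and oocyte arrays thus lay above all others, with the oocyte arrays above those of TH. TH exceeded GC 10.4-fold (3.38 ± 0.40, adjusted p = 3.2e-06) and CC 18.1-fold (4.17, adjusted p = 1.3e-07). Oocytes exceeded GC 19.0-fold and CC 32.9-fold (adjusted p = 1.6e-08 and 1.2e-09). The fitted difference of TH minus CC after IVM was 5.90 (adjusted p = 9.4e-10), and that of CC after IVM minus oocytes -6.76 (adjusted p = 1.5e-11). With 1 IVM array above background, both sizes depend on signals at the background and no fold is given. Between TH and oocytes the difference missed the threshold (-0.87 ± 0.40, adjusted p = 0.069), but it passed with array median scaling (-1.10, adjusted p = 0.021), normexp (-0.88, adjusted p = 0.00039), the deposited table (-1.42, adjusted p = 1.3e-06), array weights (-0.68, adjusted p = 0.021), slide as a block (adjusted p = 0.028) and a fit of those 2 groups alone (adjusted p = 0.0085). It also passed without TH replicate 3 (adjusted p = 0.046), GC replicate 4 (0.044) or IVM replicate 2 (0.021). Of all 22550 genes, 14435 were called between TH and oocytes in the reported fit. Normexp, the deposited table and array weights called 19913, 19612 and 19001. Array median scaling, the slide block and the fit of those 2 groups called 13989, 14597 and 13884. The 2 TEK probes share 58 of 60 bases (gene at chr8:17040335-17143857), so they are not separate evidence.

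TIE1 was well above background on all 4 arrays in TH alone. Its levels were -3.61, -4.22, -3.16 and -2.91 in TH, against -5.13, -6.18, -6.14 and -5.39 in GC, with 2 GC arrays above background. No array of CC or of CC after IVM was above background, and oocytes read -4.90, -6.25, -5.20 and -5.59, with 3 above. The TH arrays lay above all other arrays. TH exceeded GC 4.71-fold (2.23 ± 0.36, adjusted p = 0.00011) and oocytes 4.03-fold (2.01, adjusted p = 6.5e-05), CC at least 3.83-fold (adjusted p = 4.2e-06) and CC after IVM at least 2.41-fold (adjusted p = 0.00013). With normexp the differences from GC and from CC after IVM were 0.32 and 0.04 (adjusted p = 0.17 and 0.84). Its offset of 50 exceeded the TIE1 intensities in GC (5.77 to 13.7) and CC after IVM (6.31 to 8.63), which shrinks such differences. In TH the intensities were 34.7 to 146. The TIE1 probes also share 58 bases (gene at chr3:103278178-103297710).

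PECAM1 gave the largest fitted difference of the 10 genes between TH and each of GC, CC and oocytes, and against CC after IVM it stood level with TEK (5.93 ± 0.55 and 5.90 ± 0.40 SE). It read 0.09, -0.09, 0.63 and 0.37 in TH. In GC it read -5.61, -3.96, -4.91 and -7.00, with replicates 1 and 2 above background, and in CC after IVM -6.26, -4.48, -6.43 and -5.55, with 1 above. It was not above background on any CC array (-7.39 to -6.18) and was so on 1 oocyte array (-8.05 to -6.26). TH was separated from the nearest other array by more than the range of the TH arrays. TH exceeded GC 49.2-fold (5.62 ± 0.55, adjusted p = 2.4e-07), and CC at least 50.6-fold (adjusted p = 6.5e-09). PECAM1 was above background on 2 GC arrays, so the size of the 49.2-fold depends in part on signals at the background. Against CC after IVM and oocytes the fitted differences were 5.93 and 7.78 (adjusted p = 4.6e-08 and 1.7e-10), with 1 of 4 arrays above background in each, so their size depends on signals at the background and no fold is given. The 2 probes, which share 51 bases, differed from GC by 4.89 and 6.35 (adjusted p = 2.8e-06 and 4.4e-06; gene at chr19:49175892-49238414).

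CDH5 was dim throughout, unlike PECAM1. Its probes are printed because its low signal rests on them (gene at chr18:34260148-34274741 in UMD 3.1):
CDH5 probe 1: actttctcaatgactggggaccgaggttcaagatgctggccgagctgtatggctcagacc
CDH5 probe 2: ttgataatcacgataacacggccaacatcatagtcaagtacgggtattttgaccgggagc
CDH5 was above background on 1 of the 20 arrays, TH replicate 3, and through probe 1 alone. The gene level was -6.26, -6.94, -5.33 and -6.31 in TH, -7.28 to -7.05 in GC, -7.92 to -7.47 in CC, -7.31 to -6.71 in CC after IVM and -9.03 to -6.31 in oocytes. The fitted TH value was above that of CC by 1.40 ± 0.43 (adjusted p = 0.017) and of oocytes by 1.85 (adjusted p = 0.00081), both set by signals at the background, and missed the threshold against GC (0.92, adjusted p = 0.14) and CC after IVM (0.69, adjusted p = 0.20). The difference from CC missed it without TH replicate 3 (1.11, adjusted p = 0.074) or CC replicate 1 (1.30, adjusted p = 0.051), with normexp (0.17, adjusted p = 0.77) and in the deposited table (0.28, adjusted p = 0.16). The normexp offset of 50 exceeded the CDH5 intensities in TH (5.37 to 13.9) and CC (2.21 to 3.60). With the brighter probe alone the difference from GC passed (1.71, adjusted p = 0.0094), as it did without oocyte replicate 2 (adjusted p = 0.019), while probe 2 gave 0.13 (adjusted p = 0.87). At this signal over background no fold is given for CDH5.

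The slides gave 2 arrays per group each. Within slide 1 and slide 2 TH exceeded GC by 4.79 and 6.45 for PECAM1 (adjusted p = 0.012 and 0.0014) and by 2.91 and 3.84 for TEK (adjusted p = 0.0077 and 0.0038). TIE1 passed in slide 2 (2.73, adjusted p = 0.0033) and not in slide 1 (1.74, adjusted p = 0.17), and ANGPT1 in slide 1 (2.57, adjusted p = 0.018) and not in slide 2 (0.84, adjusted p = 0.10). KDR (1.60 and 1.30) and ANGPT2 (-2.23 and -1.36) kept their direction in both slides and passed in neither. Within both slides PECAM1, TEK, TIE1 and VEGFA differed between TH and CC in the same direction past the threshold.

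The 2 GC arrays with the higher theca marker sums, replicates 2 and 3, also read higher than replicates 1 and 4 for TEK (-2.18 and -2.59 against -2.92 and -3.97) and for KDR probe 2 (-2.10 and -1.42 against -3.37 and -3.90). The PECAM1 gene level did so too (-3.96 and -4.91 against -5.61 and -7.00), but PECAM1 probe 1 did not. That probe read -3.81, -3.99, -4.85 and -6.93 in GC replicates 1 to 4, and PECAM1 was above background in GC replicates 1 and 2 alone. TIE1 ran the other way (-6.18 and -6.14 against -5.13 and -5.39), KDR probe 1 and ANGPT1 did not follow, and the endothelial sum was 0.500, 1.12, 1.18 and 1.21 in GC replicates 1 to 4. The part of theca tissue in the GC levels of these genes was not tested. The 7 pericyte markers summed to 2.74 to 3.51 in TH, 0.957 to 2.06 in GC, 3.35 to 4.46 in CC and 0.103 to 0.178 in oocytes. Of these 7, 3 were higher in TH than in GC and none lower (11.1% and 12.5% of all genes), and 4 were higher than in CC and 1 lower (13.3% and 15.6%). RGS5 was at 0.50 ± 0.39 in TH against -5.94 ± 1.15 (GC) and -7.62 ± 0.21 (CC), and PDGFRB at -2.61 ± 0.24 in TH against -5.68 ± 0.22 and -5.60 ± 0.27, while MCAM was highest in CC (1.53 ± 0.18). The part of pericytes in the TH levels was not tested.

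In CC, KDR and FLT1 rose and TEK and NRP1 fell over 4 h of IVM, and the other 6 genes did not pass the threshold. These 4 of 10 genes stood near the background, in which 20.2% of all genes were higher after IVM and 15.6% lower (35.8% in all). KDR rose 3.72-fold (1.90 ± 0.45, adjusted p = 0.0029) from -4.04, -4.73, -4.46 and -4.50 to -2.91, -1.29, -2.80 and -3.14. FLT1 rose 3.54-fold (1.82 ± 0.33, adjusted p = 0.00024) from -4.55, -5.76, -4.76 and -6.09 to -3.73, -3.40, -3.60 and -3.13. The IVM arrays did not overlap those of CC for either gene. By single probe KDR rose past the threshold with probe 2 (2.96, adjusted p = 2.8e-05) and not with probe 1 (0.83, adjusted p = 0.33). FLT1 rose with probe 1 by 0.89 and with probe 2 by 2.76 (adjusted p = 0.0089 and 0.0017). FLT1 probe 2 was above background on 1 CC array, so the 3.54-fold depends in part on signals at the background.

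TEK was lower after IVM (-1.72 ± 0.40, adjusted p = 0.0026), with 1 IVM array above background, and NRP1 was 2.34-fold lower (-1.23 ± 0.45, adjusted p = 0.039). By single probe TEK fell past the threshold with probe 2 (-2.53, adjusted p = 1.6e-05) and not with probe 1 (-0.91, adjusted p = 0.23). NRP1 likewise passed with probe 2 (-1.62, adjusted p = 0.024) and not with probe 1 (-0.84, adjusted p = 0.17). With the brightest probe of each gene neither fall passed. Both genes were near background after IVM, and their differences turned to 0.12 and 0.15 with normexp (adjusted p = 0.60 and 0.61). The normexp offset of 50 exceeded the intensities after IVM of TEK (3.42 to 19.9) and NRP1 (7.54 to 18.4). In the deposited table both differences were -0.36 (adjusted p = 0.13 for TEK and 0.18 for NRP1), and the NRP1 call was also lost without CC replicate 1 or 3 or IVM replicate 1, 2 or 4. The split of calls over the 10 genes was 2 higher and 2 lower here, 5 higher and 0 lower with normexp, and 5 higher and 1 lower in the deposited table. Over all 22550 genes, 8078 were called here, 15978 with normexp and 11946 in the deposited table. Of the ligands, VEGFA (-0.34, adjusted p = 0.23) and ANGPT2 (-0.08, adjusted p = 0.91) did not pass. ANGPT1 did not overlap between the groups but missed the threshold (-0.99, adjusted p = 0.066). All of these values carry the slide of the IVM arrays as well as the 4 h of culture.

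Beyond the 10 genes, 6 lists of related genes were counted in the same fit. Of 31 other endothelial genes on the array, 25 were higher in TH than in GC and none lower, where 11.1% and 12.5% of all genes were so. Their median difference was 3.05 beside -0.22 for all genes. EMCN, the endomucin of capillary and venous endothelium, was at 1.60 ± 0.38 (SD, n = 4) in TH and -4.88 ± 1.83 in GC (89.4-fold, adjusted p = 2.1e-07). It was above background on 2 GC arrays, so the size of this fold depends in part on signals at the background. CALCRL, a receptor for adrenomedullin, was at 0.45 ± 0.22 and -5.87 ± 1.50 (80.2-fold, adjusted p = 4e-07). CALCRL had a probe above background on all 4 GC arrays. Its GC mean lay below the lowest signal well above background on those arrays (-5.22 to -4.84), so its fold also depends in part on signals at the background. The same list gave 27 higher and none lower against CC (13.3% and 15.6% of all genes), 25 and 1 against CC after IVM (18.5% and 25.3%), and 24 and 1 against oocytes (32.1% and 31.9%). The exceptions were NOS3, the endothelial nitric oxide synthase, lower in TH than in CC after IVM (-1.02), and SHANK3, lower than in oocytes (-1.02).

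**Figure D4:**
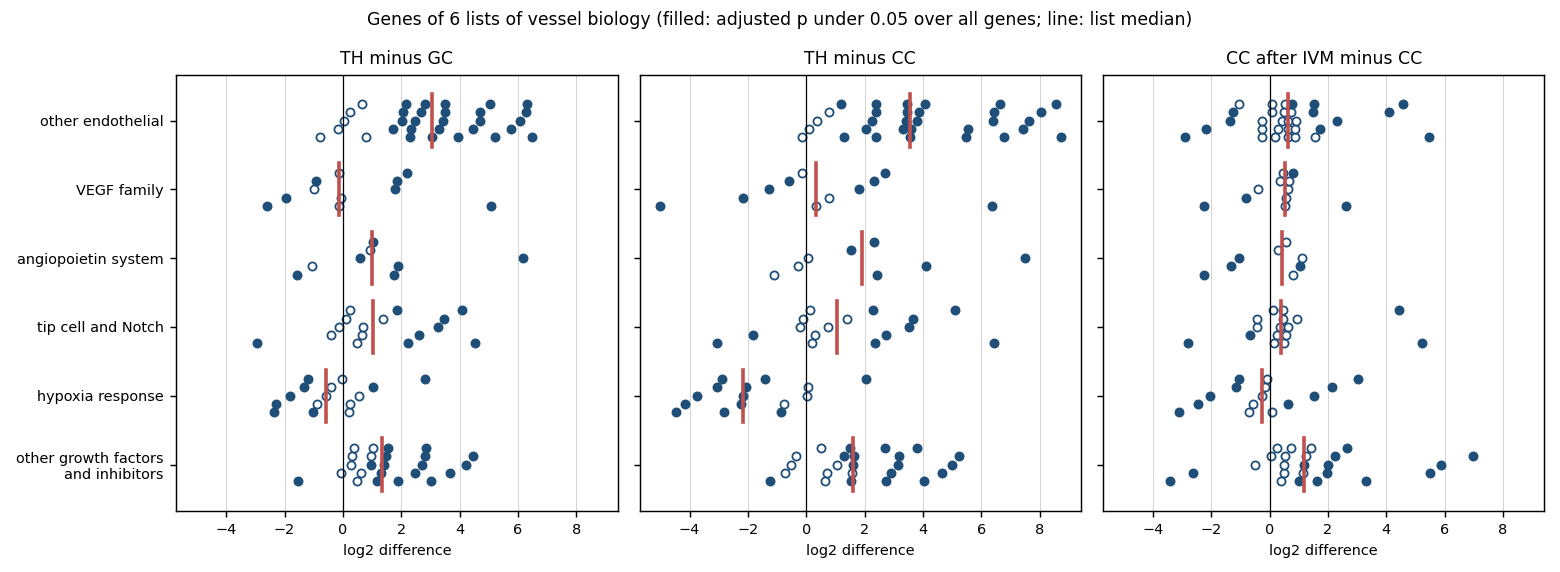
Log2 difference of every gene of the 6 lists, for TH minus GC, TH minus CC and CC after IVM minus CC, with 1 point per gene, the list median as a line and genes past the threshold filled. The endothelial list lay almost wholly to the TH side of GC (25 higher, 0 lower), and the hypoxia list held genes on both sides (2 higher, 6 lower).

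The VEGF family list of 11 genes also held the semaphorins SEMA3A, SEMA3C, SEMA3E and SEMA3F and the receptor PLXND1. Its genes moved both ways between TH and GC (4 higher, 3 lower, median -0.12), where 11.1% of all genes were higher and 12.5% lower. FIGF, which encodes the ligand VEGF-D, was at -0.11 ± 0.35 in TH and -5.19 ± 1.07 in GC (33.9-fold, adjusted p = 1.8e-08), and PLXND1, a semaphorin receptor of endothelium, was 4.55-fold higher in TH (adjusted p = 1.1e-05). PGF, a ligand of FLT1, was lower in TH (-2.30 ± 1.24) than in GC (0.29 ± 0.74; 6.03-fold, adjusted p = 0.0017), although the ranges overlapped. SEMA3A passed the test with TH lower but was not above background in either group. The angiopoietin list held 8 genes on the array, the angiopoietin-like genes ANGPTL1 to ANGPTL7 and SVEP1. Of these 8, 5 were higher in TH than in GC and 1 lower, beside the same shares of all genes. ANGPTL5 stood at 0.28 ± 0.73 and -5.89 ± 1.53 (72.3-fold, adjusted p = 9.8e-07) and ANGPTL6 was 3.68-fold higher with overlapping ranges (adjusted p = 0.0024). ANGPTL5 was above background on 2 GC arrays, so its fold depends in part on signals at the background.

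Of 16 tip cell and Notch genes, 7 were higher in TH than in GC and 1 lower, where 11.1% and 12.5% of all genes were so. CXCL12, a chemokine of stromal cells, was 22.9-fold higher (2.14 ± 0.37 in TH and -2.37 ± 0.36 in GC, adjusted p = 4.9e-10), and NID2, a basement membrane nidogen, 16.9-fold higher (adjusted p = 1.6e-05). The lower gene was HEY2, a transcription factor induced by Notch (-2.78 ± 0.38 and 0.16 ± 0.05, adjusted p = 1.7e-07). Of 24 other growth factors, receptors and inhibitors of vessel growth, 15 were higher and 1 lower, beside the same shares of all genes. FGF1 was 21.9-fold higher (-1.09 ± 0.50 and -5.54 ± 0.68, adjusted p = 3.9e-06) and ADAMTS1, a secreted protease, 18.6-fold higher (5.22 ± 0.39 and 1.00 ± 0.75, adjusted p = 2.1e-07). FGF1 was above background on 2 GC arrays, so its fold depends in part on signals at the background. The lower gene was EDN2, an endothelin (-1.52, adjusted p = 0.013), above background on no TH array and 2 GC arrays.

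Of the 15 genes of the hypoxia list, 6 were lower in TH than in GC and 2 higher, where 12.5% and 11.1% of all genes were so. Against CC, 11 were lower and 1 higher (15.6% and 13.3% of all genes), and against CC after IVM 10 were lower and none higher (25.3% and 18.5%). Against oocytes 7 were lower and 4 higher (31.9% and 32.1%). The list medians were -0.59, -2.16, -1.49 and -0.42. EGLN1, a prolyl hydroxylase that marks HIF proteins for degradation, was 5.13-fold lower in TH than in GC (-0.54 ± 0.17 and 1.81 ± 0.48, adjusted p = 6.1e-07). HIF1A, the hypoxia-inducible factor itself, was 4.95-fold lower (-1.63 ± 0.22 and 0.68 ± 0.31, adjusted p = 9.4e-07). EPAS1, the related factor HIF-2α, was the opposite, 7.04-fold higher in TH (-0.29 ± 0.76 and -3.11 ± 0.49, adjusted p = 1e-06), as was P4HA1, a collagen prolyl hydroxylase (2.07-fold, adjusted p = 0.0021).

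After IVM, 8 of the 31 endothelial genes were higher in CC and 4 lower, close to the 35.8% called over all genes (20.2% higher and 15.6% lower), as were the VEGF family counts that follow. TM4SF1, a membrane protein of endothelial and other cells, rose 44.0-fold (from -4.69 ± 0.56 to 0.77 ± 0.48, adjusted p = 1.3e-08) and CLEC14A 23.9-fold (from -3.82 ± 1.47 to 0.76 ± 1.40, adjusted p = 0.00019). The VEGF family list gave 2 higher and 2 lower, with the semaphorin SEMA3C up 6.12-fold (adjusted p = 7.1e-05) and PGF down 4.79-fold (adjusted p = 0.0039). The angiopoietin list gave 1 higher and 3 lower, among them ANGPTL2 (from 1.22 ± 0.11 to -1.04 ± 0.40, adjusted p = 1.1e-07) and ANGPTL6 (-1.32, adjusted p = 0.02), the latter not above background after IVM. Of the tip cell and Notch genes, 2 rose and 2 fell. UNC5B, a netrin receptor, rose 37.8-fold (from -3.58 ± 0.52 to 1.66 ± 0.84, adjusted p = 1.1e-08) and CXCR4, the receptor of CXCL12, 21.6-fold (from -0.98 ± 0.35 to 3.45 ± 0.90, adjusted p = 9.6e-08). The hypoxia list gave 4 higher and 5 lower, with NDRG1 up 8.13-fold (adjusted p = 5.3e-06) and ANKRD37 down 8.60-fold (adjusted p = 2.4e-07). Of the 24 other growth factors, receptors and inhibitors, 11 rose and 2 fell. FGFR2 rose 126-fold (from -4.33 ± 0.35 to 2.65 ± 0.62, adjusted p = 1.7e-10) and its ligand FGF2 58.8-fold (from -1.65 ± 0.48 to 4.23 ± 0.64, adjusted p = 6.7e-09).

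The genes whose levels followed each of the 10 most closely were sought by Pearson's r over the 20 arrays among 11637 genes above background on all TH arrays. These arrays fall into 5 groups, so r describes likeness of the pattern over groups. Nearest to PECAM1 were AFAP1L1 (r = 0.985), SMIM5 (0.984) and GPR4 (0.983), and nearest to TIE1 were EGFL7 (0.910), TMEM100 (0.908) and ZNF154 (0.907). Nearest to KDR were THBD (0.922), HDC (0.903) and BCAS1 (0.896), while CDH5 was left out, since it was above background on 1 array. TEK was followed by CREBL2 (0.974), EFS (0.974) and SMAD1 (0.970), and FLT1 by LRRN3 (0.953), FGF2 (0.944) and BAMBI (0.943). VEGFA was followed by SERINC2 (0.971), NRXN2 (0.967) and NDUFA4L2 (0.963), ANGPT2 by PARP6 (0.975), MGC157163 (0.971) and ASPH (0.969), and NRP1 by YPEL1 (0.967), QRFPR (0.960) and RHOBTB3 (0.951). ANGPT1 had the loosest neighbours, DPY19L1 (0.870), CEND1 (0.861) and GFAP (0.845).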

How the data were processed

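Total RNA (200 ng) of 20 samples was hybridised by the authors to 1-colour (Cy3) 60-mer arrays designed on bovine build UMD 3.1, and scanned and quantified with Feature Extraction 10.7.3.1, as the submitters' processing notes give it. The deposited scanner files held, per spot, the processed signal, a background-corrected intensity, with mean signal and background intensity beside it, and the deposited marks for outlier, saturated and well above background spots, which are recorded as other values. The authors also deposited a log2 table, which equalled the log2 median signal minus the array median.

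The processed intensity was taken as log2 minus each array's 75th percentile over non-control probes. Outlier spots were left out, and a gene was the median of its spots. All 20 arrays entered 1 limma fit (3.58.1, R 4.3.3, lmFit and eBayes), tested on simulated data, with Benjamini-Hochberg adjustment over 22550 genes and a threshold of 0.05. Replicate numbers paired TH with GC (same-numbered correlations of deviations 0.120 to 0.380, the pairing seen in the data and not stated in the labels) and no other groups in all 4 pairs. Single probes were fitted in the same way over 61325 probes. No filter on low values was applied, so all 10 genes were tested. Of the probes, 10663 carried no gene name and 734 of them were matched by accession in the RefSeq table. A lower bound, written "at least", sets the bright group against the detection limit of the dim arrays. The number of arrays limits the precision. The methods' analysis of variance per gene was an alternative, with other scalings, normexp (offset 50), probe summaries, blocks, single slides and arrays left out in turn. The methods describe a Tukey test on 16 arrays, which was not run here.

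The genes named were the 10 members, up to 2 higher and 2 lower per list in TH against GC, up to 2 per list in CC after IVM against CC, and the 3 genes nearest to each member but CDH5 in pattern. A gene that this rule names is not reported here. NOS3 and SHANK3 were named after their values were seen. The members and lists were chosen with earlier results of these data known.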

Additional observations from a re-analysis of the deposited data

Results flagged for a closer look

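Among 50 sets of 4 arrays (10 genes in 5 groups), 7 held 1 array far from the other 3, as measured by its gap over the range of the set. Chance alone gives about 1 such set in 20. NRP1 was -2.55 in TH replicate 4, with the other TH arrays between -1.24 and -1.04. TEK was 1.52 in oocyte replicate 3, with the others between 1.26 and 1.28. ANGPT1 was -4.71 in CC replicate 2 (others -5.98 to -5.92) and -5.77 in oocyte replicate 3 (others -6.36 to -6.30). The remaining 3 sets lay at or below background, with 1 of their 12 arrays marked above it. PECAM1 was -6.26 in oocyte replicate 2 (others -8.05 to -7.78), the array with the highest detection limit. CDH5 was -7.92 in CC replicate 1 (others -7.54 to -7.47) and -7.31 in replicate 3 of CC after IVM (others -6.80 to -6.71).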

How the results depend on the processing

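Apart from the arrays left out, the alternatives gave 600 results for single genes on the same side of the threshold, 30 newly past it, 31 no longer past it and 4 that turned sign and were past it in the reported fit or the alternative. In another 11, past it under neither, the sign turned too. The 4 all came with normexp and are CDH5 (-0.48) and ANGPT1 (-0.17) in TH against CC after IVM, and TEK (0.12) and NRP1 (0.15) in CC after IVM against CC. Normexp adds 50 to every signal before scaling to the array's 75th percentile. That percentile, as processed intensity, was 284 to 396 on the IVM arrays, 536 to 657 on CC and 424 to 1101 on TH. A signal near the offset alone would thus lie higher on the IVM arrays. The part of this in the 4 turned signs was not tested. Within slide 1 and within slide 2 the number of genes called in TH against GC fell to 3, with 2 arrays per group, and with the brightest probe of each gene 2 were called in CC after IVM against CC. Over all 22550 genes the calls in TH against GC fell from 5335 to 2264 within slide 1 and 2814 within slide 2. Leaving out 1 array at a time gave 10 genes in the F-test, 5 to 7 in TH against GC, 7 to 9 against CC, 8 to 9 against CC after IVM, 9 to 10 against oocytes, and 3 to 5 in CC after IVM against CC. For single genes it left 975 results on the same side, moved 17 below and 8 above the threshold, and turned the sign of 5, all past it under neither setting. Same-numbered arrays of different groups correlated by -0.196 to 0.380 in their deviations from the group means, over 0.1 in 11 of 40 pairs, and in all 4 pairs only for TH with GC. With the replicate number as a block the counts were 10, 6, 9, 8 and 9, and 5 in CC after IVM against CC. With that block and TH and GC alone, a fit added after seeing the data, 7 genes were called, NRP1 being the gene added. With each probe fitted on its own, an alternative chosen after seeing the data, 7, 9, 10, 10 and 4 genes had a probe past the threshold in the 4 comparisons with TH and in CC after IVM against CC. Array median scaling moved the median of all genes from -0.22 to -0.28 in TH against GC, and scaling on detected probes moved it to -0.11. In TH against oocytes it lay at 0.19 and 0.73 with these scalings. PECAM1 in all 4 comparisons with TH, TEK in TH against GC, CC and CC after IVM, and VEGFA in TH against both kinds of CC passed under every alternative run on all arrays and with each array left out. Signal over background limits CDH5, ANGPT1, TIE1 and PECAM1 outside TH, and TEK after IVM.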

Other observations

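The oocyte arrays held several transcripts of the endothelial and Notch lists beside TEK. They were picked after their values were seen. PTPRB, an endothelial phosphatase known to act on TEK, was at -1.49 ± 0.09 (SD, n = 4) in oocytes and -1.15 ± 0.31 in TH (difference 0.34 ± 0.31 SE, adjusted p = 0.34), against -5.84 ± 0.89 in GC and -4.70 ± 0.20 in CC. VWF, the von Willebrand factor of endothelium and platelets, was at -0.59 ± 1.08 in oocytes, -0.02 ± 1.26 in TH and -5.24 ± 0.46 in GC. JAG1, a Notch ligand, was at 2.04 ± 0.29 in oocytes and 1.27 ± 0.47 in TH. HEY2 was higher in oocytes (2.05 ± 0.12) than in TH (-2.78 ± 0.38, adjusted p = 9e-12). In contrast EMCN was not above background on any oocyte array and PECAM1 was so on 1.

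VEGFC, a ligand of the VEGF receptors outside the naming rule, was at 1.47 ± 0.40 in TH and 1.92 ± 0.21 in oocytes, which did not differ past the threshold (-0.45, adjusted p = 0.14). The levels of GC, CC and CC after IVM were 2.39 ± 0.22, 3.64 ± 0.08 and 4.09 ± 0.63, with TH below GC (-0.92, adjusted p = 0.014) and CC (-2.17, adjusted p = 2.1e-06). DLL4, a Notch ligand of endothelial tip cells, was at 2.11 ± 0.11 in CC and 0.27 ± 0.30 in TH (adjusted p = 0.00066), and fell by 2.81 on the log2 scale in CC after IVM (adjusted p = 8e-06).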
